A study of Mus musculus with 4 samples.

Results

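Bone marrow-derived macrophages carrying the Trpv4-null label were compared with wild-type ones in the untreated state, across genes and within each cluster of cells that the authors had named. The cells were chosen by the library name in the deposited cell annotation, which gave 5485 cells labelled Trpv4-null and 7028 wild-type cells, 12513 of the 27366 cells of the series. Both groups had been grown from the marrow of mice 8 to 12 weeks old in M-CSF at 50 ng/mL, the growth factor that turns marrow precursors into macrophages. The strain is C57BL/6J in the wild-type titles, and the labels give the other genotype as Trpv4-null. Cells given lipopolysaccharide (LPS), a bacterial wall component, at 100 ng/mL for 24 h were used only for values set beside the untreated ones. The design text speaks of 3 mice per genotype and of 12 samples, but each group was 1 library with no mouse named. The comparison therefore has no replicate check, and a difference of genotype cannot be told apart from one between 2 cultures. Intervals cover counting error only.

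TRPV4 is a calcium-permeable cation channel that opens on mechanical stretch, cell swelling and warmth, and in macrophages it has been studied in phagocytosis, adhesion and the response to LPS. Calcium entry and MAP kinase signalling act on transcription through factors such as CREB and the serum response factor, which switch on the immediate-early genes within minutes and without new protein synthesis. Products of that first wave include the AP-1 subunits Fos and Jun and the phosphatases and mRNA-decay factors that end the signal.

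The library labelled Trpv4-null held 47000669 unique molecular identifiers (UMIs, each standing for 1 captured mRNA molecule) and the wild-type library 43731003. The null-labelled cells were deeper, with a median of 7893 UMIs and 2764 genes per cell, against 5660.5 UMIs and 2260 genes in wild type. The gap ran through the 8 clusters that held 100 or more cells of both libraries, with ratios of median UMIs from 1.24 to 1.48. The median share of mitochondrial UMIs was 6.13% in null-labelled and 6.06% in wild-type cells. Depth was matched by drawing equal numbers of cells per cluster and UMI bin, which kept 3954 cells of each library with medians of 7174 UMIs in null-labelled and 7000.5 in wild-type cells. The libraries shared 12 cell barcodes.

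Trpv4 itself (chr5:114622152-114658421 on GRCm38, minus strand) was not lower in the library that carries the null label. It had 404 UMIs in null-labelled cells and 255 in wild-type cells, or 8.60 (95% interval 7.78 to 9.48) and 5.83 (5.14 to 6.59) counts per 1000000 UMIs (CPM), a ratio of 1.47 (1.26 to 1.73). In matched cells it stood at 9.30 CPM in the null-labelled library and 5.29 CPM in wild type. It was higher in 7 of the 8 clusters, from 7.13 against 5.65 CPM in the Cd74+ cluster to 8.94 against 2.02 CPM in the Proliferating one, and stood at 9.53 against 9.79 CPM in the High_Apoe cluster. These cluster values lie below the 50 CPM set for comparison within clusters, and those of small clusters rest on few UMIs. After LPS it had 9.62 CPM in null-labelled and 2.07 CPM in wild-type cells. The sources used here do not give which part of the gene was deleted or where its reads lie, and reads outside the deleted part would check nothing. The genotype is therefore used as a label, and every direction rests on it.

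Both libraries held macrophages throughout. All 12 macrophage markers reached 20 CPM in each library, among them Csf1r, the M-CSF receptor, at 1458 CPM in null-labelled and 1387 CPM in wild-type cells. Among markers of other cell types, those that reached 20 CPM were the monocyte receptor Ccr2, the dendritic cell factor Irf8, the osteoclast factor Nfatc1, the B cell gene Ighm and 5 of 11 neutrophil markers. None of the measured T or NK cell, erythroid, mast cell, stromal, endothelial or eosinophil markers did, and the stromal marker Dcn was at 0 in both libraries.

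Few genes stood far apart between the libraries. Genes entered the comparison with 20 CPM and 30 UMIs or more in the higher library, and ratios are log2 of CPM plus 1, null-labelled minus wild type. In the library labelled Trpv4-null, 9 of 6156 genes stood 2-fold or more above wild type (0.146%) and 9 stood 2-fold or more below (0.146%). At 1.25-fold these were 210 (3.41%) and 185 (3.01%), and 93.6% of genes lay within 1.25-fold. The median log2 ratio was -0.02, with 42.4% of genes above 0 and 57.6% below. In matched cells 6147 genes were compared, 9 of them past 2-fold upward (0.146%) and 8 downward (0.13%), and 5 and 7 of these were also past 2-fold among all cells. At 1.25-fold 189 genes were higher (3.07%) and 178 lower (2.9%) in matched cells. Of all cells' genes past 1.25-fold, 133 of the 210 higher and 134 of the 185 lower genes were also that far apart among matched cells.

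**Figure D1:**
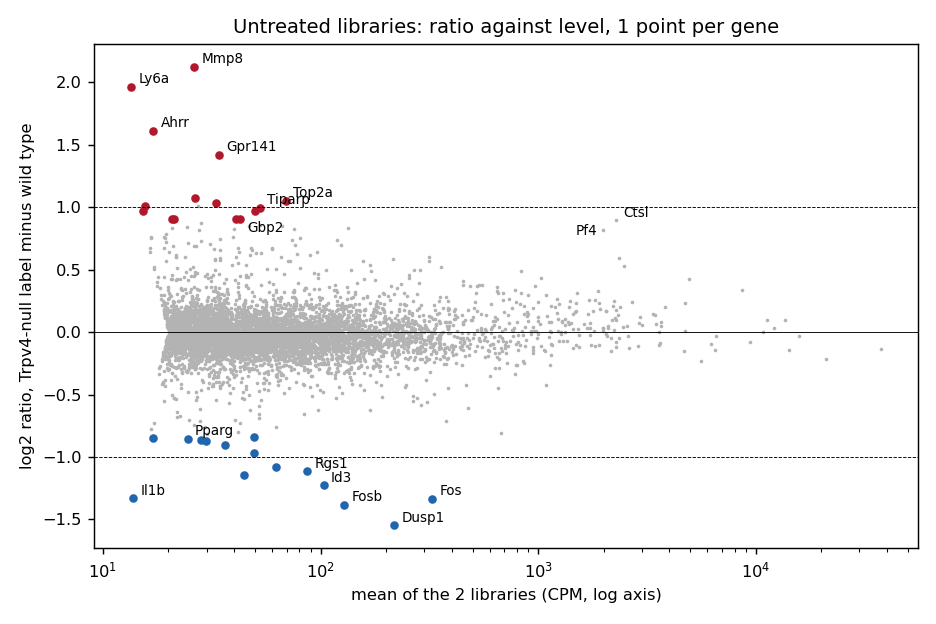
Log2 ratio (null label minus wild type, untreated) against the mean of both libraries in CPM on a log axis, 1 point per gene compared. Red points are the 15 highest and blue points the 15 lowest named genes, dashed lines mark 2-fold, and Mmp8 at 2.12 and Dusp1 at -1.55 lie at the ends.

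Dusp1, Fosb and Fos, products of the immediate-early response, lay far below wild type under the null label. Dusp1, a phosphatase that switches off p38 and JNK, had 111 CPM in null-labelled and 326 CPM in wild-type cells, a ratio of 0.340 (0.330 to 0.351). Fos had 185 CPM in null-labelled and 467 CPM in wild-type cells (0.396, 0.386 to 0.406), and its relative Fosb 70.7 CPM in null-labelled and 186 CPM in wild-type cells (0.381, 0.366 to 0.396). At matched depth Dusp1 had 111 CPM in null-labelled and 314 CPM in wild-type cells, and Fos had 180 CPM in null-labelled and 464 CPM in wild-type cells. Their log2 ratios were -1.50 and -1.36 in matched cells and -1.55 and -1.33 among all cells.

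The 3 promoters are shown because these genes lay far below wild type in all 8 clusters, and because the cyclic AMP response element bound by CREB is a known entry point of calcium signalling to Fos. They are the 250 bases before the RefSeq start (GRCm38.p6), 5′ to 3′ on the gene's strand, with the half-site TGACG, or CGTCA on the other strand, in capitals.
Dusp1 (chr17:26508473-26508722, minus strand): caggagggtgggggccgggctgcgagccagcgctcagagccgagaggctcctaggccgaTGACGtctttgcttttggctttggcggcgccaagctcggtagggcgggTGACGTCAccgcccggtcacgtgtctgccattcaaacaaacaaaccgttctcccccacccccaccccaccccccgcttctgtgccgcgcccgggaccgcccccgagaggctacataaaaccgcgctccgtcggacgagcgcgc
Fos (chr12:85473640-85473889, plus strand): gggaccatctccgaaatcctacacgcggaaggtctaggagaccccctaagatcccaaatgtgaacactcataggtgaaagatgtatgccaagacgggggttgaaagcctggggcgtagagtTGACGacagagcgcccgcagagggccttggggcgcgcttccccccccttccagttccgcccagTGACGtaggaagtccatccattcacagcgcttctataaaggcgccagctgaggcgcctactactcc
Fosb (chr7:19310046-19310295, minus strand): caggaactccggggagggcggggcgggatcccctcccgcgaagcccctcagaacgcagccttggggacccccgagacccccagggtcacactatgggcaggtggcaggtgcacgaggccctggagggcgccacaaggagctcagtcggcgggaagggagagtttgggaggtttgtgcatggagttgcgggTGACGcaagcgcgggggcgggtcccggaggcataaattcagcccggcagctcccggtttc

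In the Dusp1 window, one TGACG begins at position -191 from the start and another at -143, where it overlaps a CGTCA to form the full palindrome TGACGTCA. The Fos window holds TGACG at -129 and at -66, and the Fosb window at -60. Over the immediate-early list, 15 of the 18 compared genes had a RefSeq window, and 9 of these 15 windows (60.0%) held the half-site on either strand, against 17.8% of all 32851 windows. The full palindrome was in 1 of the 15, that of Btg2, and in 1.55% of all windows. A match of letters is a description and not a binding site.

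The list of immediate-early transcription factors lay low as a whole. Of its 26 genes 25 were in the table and 18 could be compared. Of these, 15 were lower in null-labelled cells and 12 lower by at least 1.25-fold, where 57.6% and 3.01% of all genes compared were, and the median log2 ratio was -0.42 against -0.02 for all genes. The zinc-finger factor Egr1 had 1175 UMIs in null-labelled and 2080 in wild-type cells (ratio of CPM 0.526, 0.489 to 0.565), and Klf4, a factor of macrophage polarization, stood at 35.3 CPM in null-labelled and 64.0 CPM in wild-type cells. The AP-1 subunits Jund (250 CPM null-labelled, 369 CPM wild type), Junb (226 CPM null-labelled, 327 CPM wild type) and Jun (132 CPM null-labelled, 183 CPM wild type) and the stress factor Atf3 (75.1 CPM null-labelled, 108 CPM wild type) were lower by smaller ratios of 0.678 to 0.722. Not all members lay low. Ier3, a survival gene induced by NF-kB, had 204 CPM in null-labelled and 152 CPM in wild-type cells (ratio 1.34, 1.30 to 1.38), and the antiproliferative gene Btg1 had 416 CPM in null-labelled and 399 CPM in wild-type cells. Matched on depth, 15 of 18 were lower (50.9% of all genes in matched cells) and the median was -0.36, with 10 at least 1.25-fold lower (2.9% of all genes in matched cells).

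Several genes that restrain signalling were low beside them. Of 20 on the list of dual-specificity phosphatases and signalling brakes, 10 could be compared, 8 were lower in null-labelled cells and 5 by at least 1.25-fold, where 57.6% and 3.01% of all genes compared were, with a median of -0.41. Only 8 of the 10 reached 20 CPM in the null-labelled library, so the rest, Dusp6 and Socs3, could enter the comparison only as lower. After Dusp1 came Rgs1, which shortens G protein signals, at 54.4 CPM in null-labelled and 119 CPM in wild-type cells (0.457, 0.436 to 0.479). The ERK phosphatase Dusp6 had 19.4 CPM in null-labelled and 33.2 CPM in wild-type cells, the cytokine signal inhibitor Socs3 12.7 CPM in null-labelled and 21.7 CPM in wild-type cells, and the Ras pathway inhibitor Spred1 43.3 CPM in null-labelled and 63.7 CPM in wild-type cells. Rgs2 lay closer, at 229 CPM in null-labelled and 279 CPM in wild-type cells, while Rgs10 (652 CPM null-labelled, 613 CPM wild type) and Rgs19 (65.8 CPM null-labelled, 65.7 CPM wild type) were not lower. Zfp36, which encodes the mRNA-decay factor tristetraprolin, stood at 287 CPM in null-labelled and 470 CPM in wild-type cells (0.610, 0.597 to 0.624), but the 12 decay factors compared had a median of -0.03.

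The immediate-early gap was present in each cluster and at each depth. Across the 8 clusters Dusp1 ranged from 85.8 to 166 CPM in null-labelled cells and from 276 to 459 CPM in wild-type cells. Fos ranged from 142 to 293 CPM in null-labelled and from 327 to 620 CPM in wild-type clusters. These genes were among the lowest of all compared, and the clusters of a side share 1 library, so the clusters are not replicates. Both genes were highest in the cluster named Il1b+_Cxcl2+ in wild type. The median of the immediate-early list was below 0 in all 8 clusters, from -0.62 in the Ifit1bl1+_Cmpk2+ cluster to -0.30 in the Tmem176+ cluster, and in all 8 among matched cells, from -0.65 to -0.13. The 8 medians of all genes compared lay between -0.04 and -0.01. Within 5 ranges of UMIs per cell the list median lay between -0.40 and -0.21 and the log2 ratio of Dusp1 between -1.55 and -1.44.

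**Figure D2:**
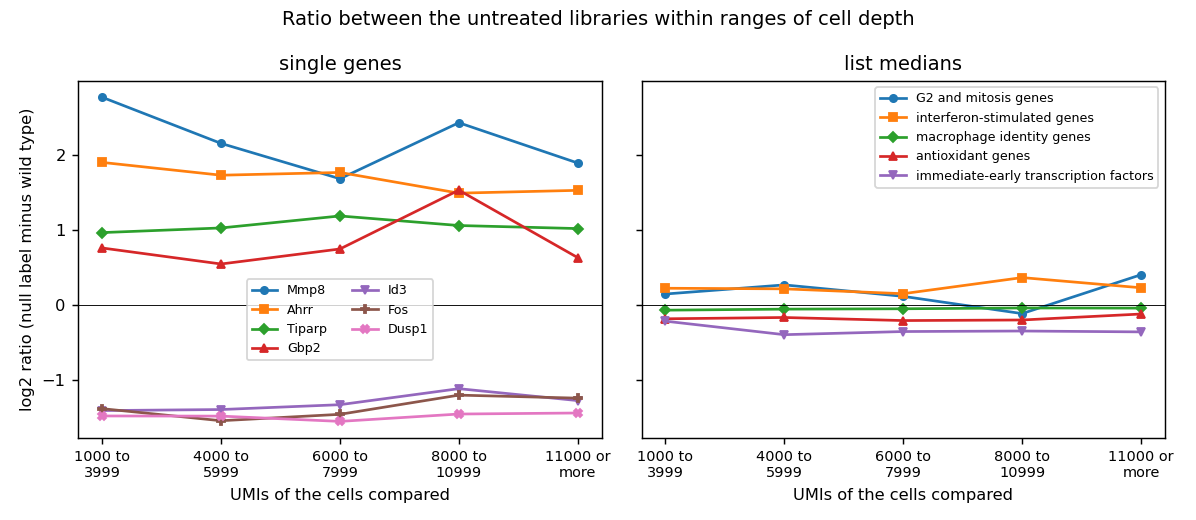
Log2 ratio (null label minus wild type) within 5 ranges of UMIs per cell, for single genes on the left and list medians on the right. Dusp1 stays between -1.55 and -1.44 and Ahrr between 1.49 and 1.90 over the ranges.

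At 3000 UMIs per cell the gap appeared both as fewer cells with a transcript and as fewer transcripts in those cells. Thinning left 5276 null-labelled and 6362 wild-type cells, after 209 and 666 shallower cells were left out. A Dusp1 UMI was found in 23.7% (22.5 to 24.8) of null-labelled and 49.1% (47.8 to 50.3) of wild-type cells, and a Fos UMI in 33.1% (31.8 to 34.3) of null-labelled and 58.3% (57.1 to 59.5) of wild-type cells. Before thinning, Dusp1 was in 42.8% of null-labelled and 61.9% of wild-type cells and Fos in 52.2% of null-labelled and 68.7% of wild-type cells. Cells with Dusp1 held on average 1.40 UMIs of it in the null-labelled library and 2.06 in wild type. Fos, Fosb and Dusp1 together gave 1.09 UMIs per null-labelled cell and 2.97 per wild-type cell, and none in 49.3% of null-labelled and 25.3% of wild-type cells. At least 10 UMIs of the 3 genes were found in 0.265% of null-labelled and 3.68% of wild-type cells. No cell type that lacks these genes was present, so the part of free RNA in the shares was not tested.

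**Figure D3:**
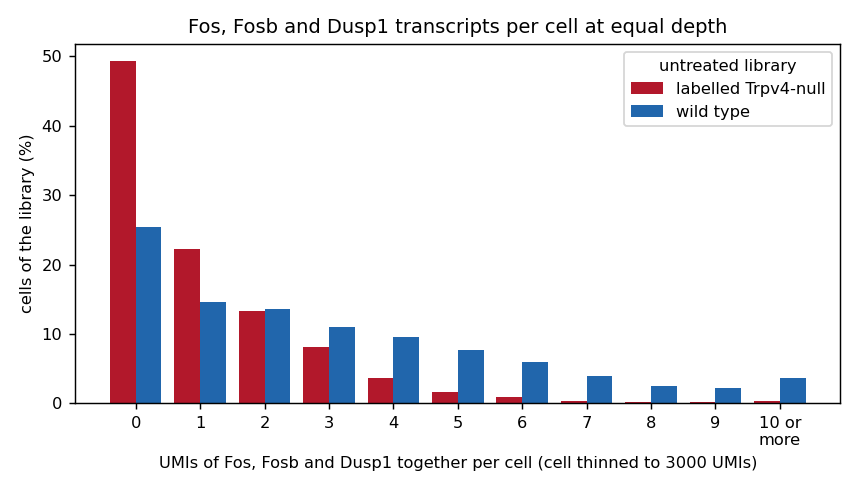
Share of cells (%) of each untreated library by the number of UMIs of Fos, Fosb and Dusp1 together, after each cell was thinned to 3000 UMIs. The null-labelled library (red) has 49.3% of cells at 0 and wild type (blue) 25.3%, and the wild-type bars are higher from 2 UMIs upward.

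Beyond transcription factors, several secreted and surface products of macrophage activation were lower under the null label. Il1b, the interleukin-1 beta gene, stood at 7.43 CPM in null-labelled and 20.2 CPM in wild-type cells (0.367, 0.324 to 0.416), and the chemokine Cxcl2 at 33.04 CPM in null-labelled and 65.8 CPM in wild-type cells (0.502, 0.472 to 0.535). Il1b was found in few cells: 100 null-labelled and 282 wild-type cells had a UMI of it, and the 10 richest cells held 56.4% of its UMIs in the null-labelled and 32.1% in the wild-type library. Cd83, a surface protein of activated antigen-presenting cells, had 27.3 CPM in null-labelled and 61.7 CPM in wild-type cells, and Id3, an inhibitor of helix-loop-helix factors, 61.5 CPM in null-labelled and 145 CPM in wild-type cells. The chemokines Ccl4 (38.6 CPM null-labelled, 55.2 CPM wild type) and Ccl3 (71.1 CPM null-labelled, 96.0 CPM wild type) lay lower by less. Others went the other way. Pf4, a platelet factor gene that macrophages also transcribe, had 2531 CPM in null-labelled and 1436 CPM in wild-type cells (1.76, 1.75 to 1.78), and Il15 had 66.8 CPM in null-labelled and 46.7 CPM in wild-type cells. The 12 cytokines and chemokines compared had 7 higher and 5 lower members and a median of 0.04.

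The NF-kB list itself was close to level. Of 17 subunits and feedback genes compared, 12 were lower, where 57.6% of all genes were, and 1 by at least 1.25-fold, where 3.01% were, with a median of -0.05. That one was Nfkbiz, a nuclear co-regulator, at 21.5 CPM in null-labelled and 38.5 CPM in wild-type cells (0.558, 0.516 to 0.604). The inhibitor Nfkbia had 107 CPM in null-labelled and 127 CPM in wild-type cells, and the subunits Nfkb1 (123 CPM null-labelled, 147 CPM wild type) and Rela (72.3 CPM null-labelled, 80.9 CPM wild type) lay close by. Birc3, an apoptosis inhibitor, was higher, at 89.3 CPM in null-labelled and 67.7 CPM in wild-type cells.

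At the other end Mmp8, Ly6a, Ahrr and Gpr141 were each higher under the null label in all 8 clusters. Mmp8, a collagenase of neutrophils and macrophages, had 43.4 CPM in null-labelled and 9.19 CPM in wild-type cells, a ratio of 4.72 (4.24 to 5.27). Its clusters ran from 24.9 to 138 CPM in the null-labelled library and from 4.17 to 28.9 CPM in wild type, highest in the Proliferating cluster of both. Ly6a, a surface protein that interferon induces, had 22.1 CPM in null-labelled and 4.92 CPM in wild-type cells (4.50, 3.88 to 5.24), and was richest in the Ifit1bl1+_Cmpk2+ cluster at 165 CPM in null-labelled and 37.0 CPM in wild-type cells. Gpr141, an orphan receptor gene, had 50.0 CPM in null-labelled and 18.1 CPM in wild-type cells (2.77, 2.55 to 3.00).

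Mmp8 is also a neutrophil marker, and the summed level of the 11 measured neutrophil markers was 387 CPM in null-labelled and 232 CPM in wild-type cells. Of these, 5 could be compared, with a median log2 ratio of 0.70. All 5 were higher in null-labelled cells and 4 by at least 1.25-fold, where 42.4% and 3.41% of all genes compared were. Only 3 of the 5 reached 20 CPM in wild type, so the rest could enter the comparison only as higher. The median was 0.90 in matched cells and 1.59 in thinned cells, where 6 could be compared in each. Of the markers too low to compare among all cells, Camp, Ltf and Lcn2 were higher and Cxcr2, Mmp9 and Elane lower. At least 10 UMIs of the granule genes S100a8 and S100a9 were found in 10 null-labelled and 7 wild-type cells, which held 99.6% and 99.3% of the S100a9 UMIs. Those cells held 2.60% and 5.22% of the Mmp8 UMIs, which were spread over 962 null-labelled and 278 wild-type cells. At 3000 UMIs per cell, Mmp8 was found in 8.21% (7.48 to 8.98) of null-labelled and 2.15% (1.81 to 2.54) of wild-type cells, against 17.5% of null-labelled and 3.96% of wild-type cells before thinning.

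Of 4 aryl hydrocarbon receptor genes compared, 2 classical targets were higher under the null label and 2 genes were lower. This receptor senses dietary and microbial aromatic compounds and, with its partner Arnt, induces its own repressor, Ahrr. Ahrr stood at 26.2 CPM in null-labelled and 7.89 CPM in wild-type cells (3.32, 2.94 to 3.75), and Tiparp, an ADP-ribosyltransferase that also restrains the receptor, at 70.5 CPM in null-labelled and 34.9 CPM in wild-type cells (2.02, 1.90 to 2.15). Both were higher in all 8 clusters, with log2 ratios of 0.79 to 2.19 for Ahrr and 0.55 to 1.58 for Tiparp. The receptor Ahr was lower, at 16.2 CPM in null-labelled and 21.8 CPM in wild-type cells, and Arnt had 37.8 CPM in null-labelled and 39.7 CPM in wild-type cells. These are the 4 compared genes of a list of 11, of which 7 were measured. Ahrr reached 20 CPM only in the null-labelled library, so it could enter the comparison only as higher. Ahr reached 20 CPM only in wild type, so it could enter only as lower.

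The promoters of both targets are shown because the xenobiotic response element is where the receptor and Arnt bind. The core searched was GCGTG, which on the other strand reads CACGC. The windows are the 250 bases before the RefSeq start (GRCm38.p6), with the core in capitals.
Ahrr (chr13:74292332-74292581, minus strand): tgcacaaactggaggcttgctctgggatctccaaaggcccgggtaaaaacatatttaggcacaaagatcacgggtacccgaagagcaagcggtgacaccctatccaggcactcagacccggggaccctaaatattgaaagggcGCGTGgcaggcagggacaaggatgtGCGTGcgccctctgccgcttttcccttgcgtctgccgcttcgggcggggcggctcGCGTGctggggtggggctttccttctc
Tiparp (chr3:65528197-65528446, plus strand): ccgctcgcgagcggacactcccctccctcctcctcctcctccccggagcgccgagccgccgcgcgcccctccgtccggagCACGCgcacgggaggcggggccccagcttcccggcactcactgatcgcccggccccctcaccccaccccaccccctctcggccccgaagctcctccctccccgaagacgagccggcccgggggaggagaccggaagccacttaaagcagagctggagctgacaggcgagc

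The Ahrr window holds GCGTG at -107, -82 and -27, and the Tiparp window holds CACGC at -170. The core was present in the windows of all 3 compared list genes that had one (Ahrr, Tiparp and Arnt), and in 28.2% of all windows. Arnt was not higher under the null label, and here too a match of letters is not a binding site.

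Interferon-stimulated genes were slightly higher under the null label. All 45 compared members of a list of 60 were higher in null-labelled cells, where 42.4% of all genes compared were, and 17 by at least 1.25-fold, where 3.41% were, with a median of 0.25. Only 38 of the 45 reached 20 CPM in wild type, so the rest could enter the comparison only as higher. Gbp2, a guanylate-binding protein of host defence, had 56.1 CPM in null-labelled and 29.5 CPM in wild-type cells (1.90, 1.78 to 2.04), and Irf7, the factor that amplifies type I interferon, had 53.9 CPM in null-labelled and 28.3 CPM in wild-type cells. Gbp3 (32.5 CPM null-labelled, 19.8 CPM wild type), Gbp7 (79.7 CPM null-labelled, 52.1 CPM wild type) and the nucleic acid sensor Zbp1 (26.1 CPM null-labelled, 15.9 CPM wild type) followed, and Isg15, a ubiquitin-like protein, had 49.2 CPM in null-labelled and 32.2 CPM in wild-type cells. Among matched cells 44 of 45 were higher, where 49.1% of all genes were, and the median was 0.20. In cells of 6000 to 8000 UMIs 32 were higher and 13 lower, with a median of 0.15. At 8000 to 11000 UMIs 44 were higher and 2 lower, with a median of 0.37. The list median was above 0 in all 8 clusters, from 0.05 in the Proliferating to 0.27 in the Il1b+_Cxcl2+ cluster. In the cluster that the authors named for the interferon genes Ifit1bl1 and Cmpk2, Gbp2 reached 560 CPM in null-labelled and 373 CPM in wild-type cells, and the median of 55 compared genes was 0.12. A typical cell thinned to 3000 UMIs held 14 UMIs of the list in the null-labelled library and 12 in wild type.

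The Gbp2 promoter is shown because Gbp2, with Irf7, stood highest among the interferon genes described here. The interferon-stimulated response element, searched as a pair of GAAA blocks (TTTC on the other strand) with any 2 bases between them, is in capitals (250 bases before the RefSeq start, GRCm38.p6).
Gbp2 (chr3:142620413-142620662, plus strand): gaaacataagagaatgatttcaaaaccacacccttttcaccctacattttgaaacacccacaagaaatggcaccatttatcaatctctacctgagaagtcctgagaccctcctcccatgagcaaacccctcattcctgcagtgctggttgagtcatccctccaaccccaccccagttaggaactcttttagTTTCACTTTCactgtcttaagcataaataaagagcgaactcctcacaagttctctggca

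The match begins at -59. Of 44 windows of 35 compared interferon genes, 17 (38.6%) held this element, against 2.98% of all windows.

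Genes of G2 and mitosis were higher under the null label in the whole libraries, and close to level once clusters were matched. All 44 compared genes of this list were higher and 39 by at least 1.25-fold, where 42.4% and 3.41% of all genes compared were, with a median of 0.65. All 44 reached 20 CPM in the null-labelled library but only 27 in wild type, so the rest could enter the comparison only as higher. Top2a, which untangles replicated chromosomes, had 93.6 CPM in null-labelled and 44.6 CPM in wild-type cells, the spindle protein gene Nusap1 36.1 CPM in null-labelled and 16.7 CPM in wild-type cells, the mitotic kinase gene Plk1 21.1 CPM in null-labelled and 9.99 CPM in wild-type cells, and Ccnb1, cyclin B1, 36.6 CPM in null-labelled and 19.6 CPM in wild-type cells. The cluster named Proliferating, which such genes define, made up 542 of the null-labelled and 421 of the wild-type cells. Once cells were matched on cluster and depth, the median of the 37 genes compared was 0.00, and Top2a stood at 67.6 CPM in null-labelled and 59.2 CPM in wild-type cells. Within the Proliferating cluster the median over 64 genes was 0.12, and in the other clusters 5 or 6 genes could be compared, with medians of -0.16 to 0.09. A cell of that cluster thinned to 3000 UMIs held a median of 52 UMIs of the list in the null-labelled and 44 in the wild-type library. The list of S phase and replication genes had a median of 0.01, and Pcna, the sliding clamp of replication, had 48.0 CPM in null-labelled and 57.8 CPM in wild-type cells.

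Among all cells, antioxidant genes were lower about as often as all genes, with 6 of them farther apart. In matched cells they were lower more often. Of 27 compared among all cells, 18 were lower in null-labelled cells, where 57.6% of all genes were, and 6 by at least 1.25-fold, where 3.01% were, with a median of -0.12. Among matched cells 21 of 27 were lower, where 50.9% of all genes were, with a median of -0.15. By at least 1.25-fold 8 were lower in matched cells, where 2.9% of all genes were. The 6 genes farther apart among all cells serve the thioredoxin, heme and glutathione systems and hydrogen peroxide removal. Thioredoxin reductase 1, Txnrd1, had 64.9 CPM in null-labelled and 103 CPM in wild-type cells (0.632, 0.604 to 0.662), and heme oxygenase 1, Hmox1, had 216 CPM in null-labelled and 318 CPM in wild-type cells (0.681, 0.664 to 0.699). The glutathione synthesis subunits Gclc (25.7 CPM null-labelled, 35.4 CPM wild type) and Gclm (101 CPM null-labelled, 131 CPM wild type), glutathione reductase Gsr (46.9 CPM null-labelled, 62.7 CPM wild type) and catalase, Cat (267 CPM null-labelled, 347 CPM wild type), made up the rest. Of 16 heat shock genes 15 were lower, where 57.6% of all genes were, and 2 by at least 1.25-fold, where 3.01% were, with a median of -0.15. Among them was the mitochondrial chaperonin Hspd1 at 56.5 CPM in null-labelled and 74.1 CPM in wild-type cells.

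Lists of macrophage function had medians near 0, with single genes apart. Of 29 macrophage identity genes 12 were higher and 17 lower (median -0.03). The LPS co-receptor Cd14 had 231 CPM in null-labelled and 346 CPM in wild-type cells, while the Fc receptor Fcgr3 had 972 CPM in null-labelled and 694 CPM in wild-type cells and the integrin Itgam 265 CPM in null-labelled and 202 CPM in wild-type cells. The 38 lysosome genes had a median of -0.02. The protease cathepsin L, Ctsl, had 2979 CPM in null-labelled and 1600.5 CPM in wild-type cells (1.86, 1.84 to 1.88), and the lysosomal glycoprotein Gpnmb 2849 CPM in null-labelled and 1884 CPM in wild-type cells, but the acid lipase Lipa had 552 CPM in null-labelled and 753 CPM in wild-type cells. Of 16 cholesterol genes 14 were higher, where 42.4% of all genes were, and 3 by at least 1.25-fold, where 3.41% were, with a median of 0.11. Only 12 of the 16 reached 20 CPM in wild type, so the rest, Scd2 among them, could enter the comparison only as higher. The desaturase Scd2 had 28.9 CPM in null-labelled and 18.8 CPM in wild-type cells.

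Other calcium and mechanosensitive channels were close to level as a list. The 20 calcium and mechanosensitive channel genes compared had a median of 0.02, with 11 higher and 9 lower. Only 17 of the 20 reached 20 CPM in wild type, so the rest could enter the comparison only as higher. The calcium-activated potassium channel Kcnn4 had 21.02 CPM in null-labelled and 35.1 CPM in wild-type cells (0.599, 0.553 to 0.650). The ATP-gated channel P2rx7 had 56.7 CPM in null-labelled and 79.8 CPM in wild-type cells. P2rx7 starts 8.02 Mb from the start of Trpv4 on chromosome 5, and the part of that position in its ratio was not tested. Store-operated calcium channels differed less, with Orai1 at 124 CPM in null-labelled and 111 CPM in wild-type cells and Orai3 at 49.1 CPM in null-labelled and 57.4 CPM in wild-type cells. Among all cells, actin, adhesion and mechanotransduction genes were lower about as often as all genes, in 25 of 40 against 57.6% (median -0.09). In matched cells 31 of 40 were lower, against 50.9% of all genes (median -0.07). Among the lower ones were the integrins Itgal (48.0 CPM null-labelled, 66.5 CPM wild type) and Itgav (29.1 CPM null-labelled, 39.6 CPM wild type). Alternative activation genes had a median of -0.21 over 14 genes among all cells and -0.15 in matched cells. The crosslinking enzyme Tgm2 (37.3 CPM null-labelled, 57.9 CPM wild type) and the nuclear receptor Pparg (17.1 CPM null-labelled, 31.8 CPM wild type) lay low. The folate receptor Folr2 (59.5 CPM null-labelled, 37.4 CPM wild type) lay high. Only 12 of the 14 reached 20 CPM in the null-labelled library, so the rest, Pparg among them, could enter the comparison only as lower. MHC class II (7 genes, 0.06), MHC class I (14 genes, 0.12), matrix metalloproteases and inhibitors (10 genes, 0.14), glycolysis and hypoxia (20 genes, 0.02), respiratory chain (51 genes, 0.05), mitochondrial genome (13 genes, 0.00) and housekeeping genes (18 genes, 0.03) had these medians, against -0.02 for all genes. In matched cells the medians of MHC class II (-0.04), glycolysis and hypoxia (-0.02) and respiratory chain genes (-0.02) were below 0. Those of MHC class I (0.05), matrix metalloproteases and inhibitors (0.20), mitochondrial genome (0.04) and housekeeping genes (0.03) were above 0, against -0.003 for all genes.

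**Figure D4:**
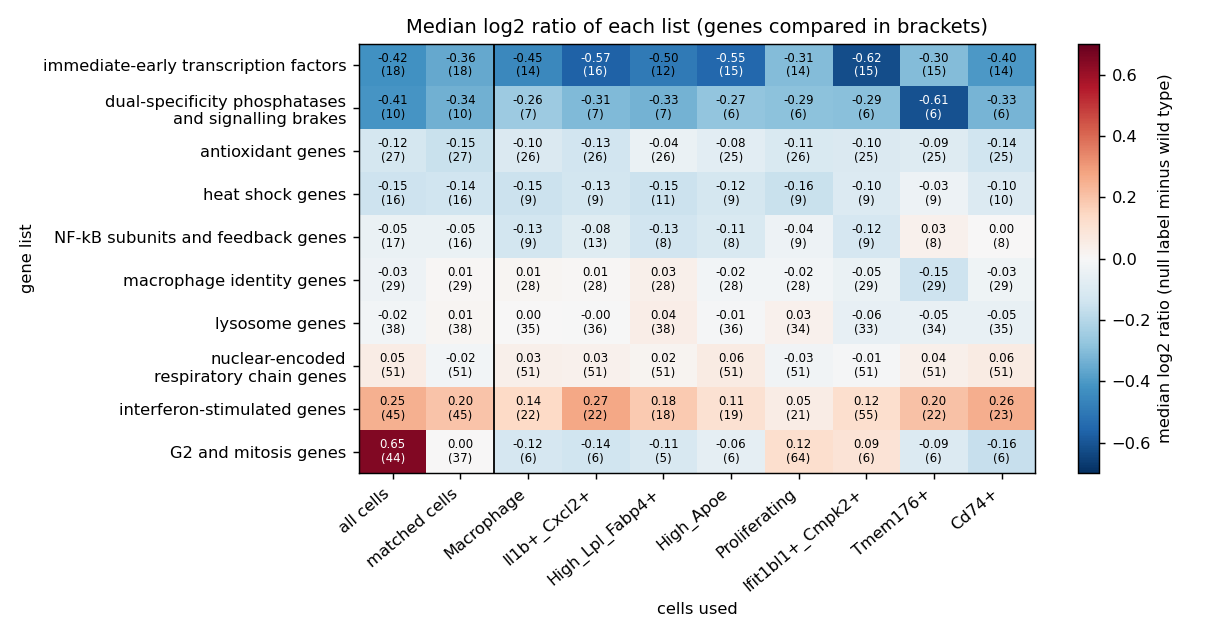
Median log2 ratio (null label minus wild type) of 10 gene lists in all cells, in matched cells and in each of 8 clusters, with the number of genes compared in brackets. The immediate-early row is below 0 in every column and the interferon row above 0, while the G2 and mitosis row is 0.65 in all cells and 0.00 in matched cells.

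Some genes differed in the same direction in each cluster whatever its type. Of 2741 genes that could be compared in all 8 clusters (at least 50 CPM and 30 UMIs in the higher library of each), 19 were at least 1.25-fold higher in every one (0.693%) and 16 lower (0.584%), 1 of them a gene model without a name. These genes were singled out after their values were seen. Ctsl ranged from a log2 ratio of 0.73 to 1.15, Pf4 from 0.63 to 1.24, Gpnmb from 0.52 to 0.71, the receptor Notch1 from 0.66 to 0.91 and Fh1, fumarate hydratase of the citric acid cycle, from 0.34 to 1.31. Among the lower ones were Dusp1, Fos, Fosb, Junb, Zfp36, Rgs1, Id3 and Cd14, and also Id2, the lipoprotein lipase Lpl (375 CPM null-labelled, 573 CPM wild type) and the C-type lectin Clec12a (276 CPM null-labelled, 391 CPM wild type). The ribosomal protein genes Rpl41 (2926 CPM null-labelled, 2024 CPM wild type) and Rps28 (1094 CPM null-labelled, 846 CPM wild type) were higher. Rpl41 and Rps28 have near-identical copies in the genome, and the sources used here do not say how reads shared between copies were counted.

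**Figure D5:**
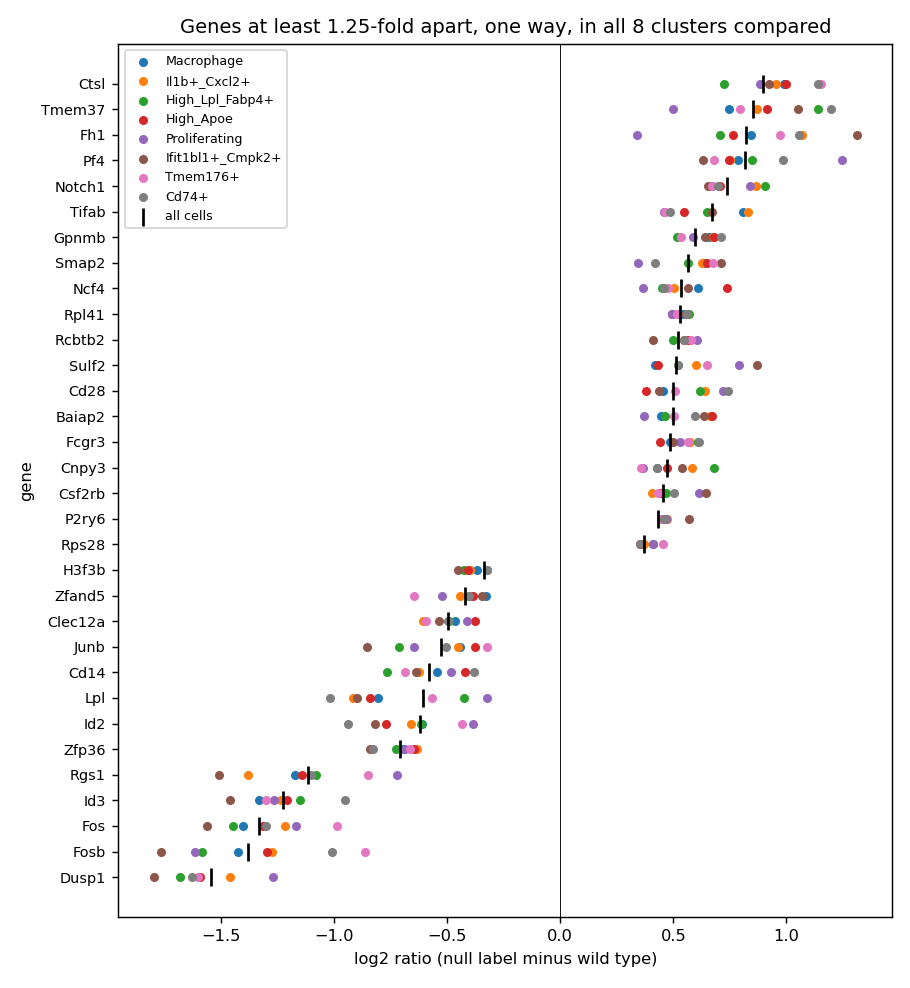
Log2 ratio (null label minus wild type) in each of 8 clusters (coloured points) and in all cells (black bars) for 32 named genes at least 1.25-fold apart in one direction in every cluster. Points run from 0.73 to 1.15 for Ctsl at the top and from -1.80 to -1.27 for Dusp1 at the bottom.

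Some of the widest gaps within single clusters rested on a few cells. In the Cd74+ cluster the chemokine Ccl5 had 8 UMIs in 4 null-labelled cells and 569 in 3 wild-type cells, of which the richest held 262. The granule genes Ngp and S100a9 went in opposite directions in 2 clusters. In the Proliferating cluster Ngp had 1 UMI in null-labelled and 451 in wild-type cells, each in 1 cell, and S100a9 had 166 UMIs in null-labelled and 2485 in wild-type cells, 4 cells each. In the Macrophage cluster Ngp had 1229 UMIs in 11 null-labelled and 291 in 5 wild-type cells, and S100a9 had 7012 UMIs in 20 null-labelled and 1613 in 15 wild-type cells. Gaps spread over more cells were those of Tiparp in the Il1b+_Cxcl2+ cluster, with 112 CPM in null-labelled and 36.9 CPM in wild-type cells, and of Pf4 in the Proliferating cluster, with 2589 CPM in 519 null-labelled cells and 1092 CPM in 367 wild-type cells. The metalloprotease Mmp13 in the Ifit1bl1+_Cmpk2+ cluster had 107 CPM from 54 null-labelled cells and 33.01 CPM from 23 wild-type cells. Apoe, the apolipoprotein that names a cluster, had 3398 CPM in null-labelled and 1708 CPM in wild-type cells of the Cd74+ cluster, but 13745 CPM in null-labelled and 13393 CPM in wild-type cells of the High_Apoe cluster.

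Genes beside Trpv4 on chromosome 5 were examined by position, in windows chosen after the data were seen. Of 28 genes compared whose start lay within 2 Mb of that of Trpv4, 3 lay 1.25-fold or more above wild type and 1 below (14.3%), against 6.43% of the other 6081 genes with a position. Within 10 Mb these were 5 higher and 4 lower of 107 genes (8.41%). Among the lower ones was the channel gene P2rx7, 8.02 Mb away. The glycolipid transfer protein gene Gltp, at chr5:114669398-114690984 on GRCm38, had 219 CPM in null-labelled and 312 CPM in wild-type cells, and was lower in all 8 clusters. The gene model 1500011B03Rik at chr5:114808196-114823468 had 36.9 CPM in null-labelled and 17.9 CPM in wild-type cells (2.07, 1.90 to 2.25), and Gcn1l1, an activator of the integrated stress response, at chr5:115565254-115622654, had 66.4 CPM in null-labelled and 33.4 CPM in wild-type cells (1.99, 1.87 to 2.12). Both were higher in all 8 clusters. After LPS Gltp stood at 78.1 CPM in null-labelled and 123 CPM in wild-type cells, 1500011B03Rik at 23.3 CPM in null-labelled and 13.2 CPM in wild-type cells and Gcn1l1 at 22.01 CPM in null-labelled and 18.1 CPM in wild-type cells. The part of the altered locus in these values was not tested.

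The pattern of the untreated cells was only partly found in the LPS-treated pair of libraries. Of 4887 genes with a position that were compared in both states, 130 lay 1.25-fold or more above wild type in untreated null-labelled cells, and after LPS 36 of them were higher by as much and 3 lower. Of 143 lower genes, 15 were lower after LPS by as much and 19 higher. Over all genes compared after LPS, 3.04% lay 1.25-fold above wild type and 2.56% below. The immediate-early median was 0.22 after LPS over 13 genes, with Dusp1 at 158 CPM in null-labelled and 119 CPM in wild-type cells and Fosb at 40.1 CPM in null-labelled and 31.6 CPM in wild-type cells. Mmp8 (15.8 CPM null-labelled, 4.19 CPM wild type), Ly6a (270 CPM null-labelled, 132 CPM wild type) and Ahrr (10.2 CPM null-labelled, 5.21 CPM wild type) were higher under the null label after LPS too. So was Ctsl, at 2561 CPM in null-labelled and 1534.5 CPM in wild-type cells. Mmp8 and Ahrr lay below 20 CPM in both libraries after LPS, so they were not among the genes compared there.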

How the data were processed

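The deposited table holds whole-number counts of UMIs per gene and cell for 14432 genes, not normalized, and the authors' annotation gives each cell's UMI count, its mitochondrial fraction, its library and its cluster name, per the file headers. Cell Ranger 3.1.0, Seurat 4, R 4.2 and the build mm10 are named in the submitters' processing notes, with no role given. The sources used here do not say how cells were filtered or whether doublets were removed. No doublet caller was run, and an alternative leaves out cells over 20000 UMIs. No column of per-sample values was left unmapped (0).

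UMIs were summed per library and scaled to CPM (per 1000000 UMIs). For log2 ratios 1 CPM was added to both values, so ratios of low genes come out too small. Genes needed 20 CPM (50 CPM within clusters) and 30 UMIs in the higher library, and 2-fold and 1.25-fold are sizes, not tests. With 1 library per group no p-value was computed. Ratios carry exact conditional, CPM exact Poisson and shares exact Clopper-Pearson 95% intervals, which cover counting error only. The median half-width of the CPM interval in compared genes was 4.08% of the value. Cells were matched within cluster and bins of 0.1 in log10 UMIs (seed 7) or thinned to 3000 UMIs (1500 as an alternative).

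The members, the 24 gene lists and 12 marker lists, and the tests were chosen with earlier results of these data known. Named genes were the 15 highest and 15 lowest, Trpv4, up to 8 members per list by size of ratio, the immediate-early and brake genes compared, 4 genes each way per cluster, up to 6 with the widest range over clusters and leading markers of other cell types (235 in all). Genes singled out for differing in every cluster or for lying near Trpv4 were chosen after their values were seen. Some genes that met these rules are not reported here. Positions came from GENCODE M21 on GRCm38, where 14275 symbols matched, and promoter sequences from RefSeq (GRCm38.p6). Strand use in counting is not stated. The steps were tested on simulated counts. The work ran in Python 3.11.15 with pandas 2.3.3, numpy 2.4.6, scipy 1.17.1 and matplotlib 3.10.9. R 4.3.3 with edgeR 4.0.16 gave TMM factors alone.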

Additional observations from a re-analysis of the deposited data

Results flagged for a closer look

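Between the untreated and the LPS-treated pair of libraries, 4 of 4921 genes compared in both were at least 1.5-fold apart in opposite directions. The log2 ratio (null label minus wild type) of Rgs1 was -1.12 untreated and 0.87 after LPS. That of the immediate-early factor Fos was -1.33 untreated and 0.63 after LPS. Klf4 had -0.84 untreated and 0.59 after LPS, and the lipase Lpl had -0.61 untreated and 0.71 after LPS. With 1 library per group these differences were not tested.

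Between clusters of the untreated libraries, 1 of 2741 genes was at least 1.5-fold apart in opposite directions. Hgsnat, a lysosomal acetyltransferase gene, had a log2 ratio of -0.60 in the Ifit1bl1+_Cmpk2+ cluster (65.8 CPM in null-labelled and 101 CPM in wild-type cells) and 0.68 in the Cd74+ cluster (85.5 CPM in null-labelled and 53.1 CPM in wild-type cells). This difference was not tested either.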

How the results depend on the processing

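The directions of the 5 list medians held under every alternative run except for G2 and mitosis genes, whose median of 0.65 was -0.0401 without the Proliferating cluster, 0.00333 in matched cells and 0.0824 with clusters weighted equally. The counts of genes at least 2-fold higher and lower (9 and 9) were 22 and 17 with a minimum of 5 CPM, 27 and 22 with no minimum and 15 and 12 without cells over 5 percent mitochondrial UMIs. Between 6 and 12 genes were higher and 8 and 11 lower under each other alternative, including both scaling factors, which moved ratios by 0.0067 and 0.0059. The immediate-early median (-0.42) was -0.36 in matched cells, the interferon median (0.25) was 0.15 with clusters weighted equally, and the antioxidant median (-0.12) was -0.15 in matched cells. The median of signalling brakes (-0.41) was -0.28 without the Il1b+_Cxcl2+ cluster, -0.34 in matched cells and -0.31 with no minimum. The difference in the share of cells with a Fos UMI (null-labelled minus wild type) was -25.2 percentage points at 3000 UMIs per cell and -21.2 at 1500. Of 2350 values of 235 named genes under the alternatives, 24 (of 16 genes) changed sign, 5 of them of genes at least 1.25-fold apart as reported: with clusters weighted equally S100a9 was -0.63, Ngp -0.70, S100a8 -0.51 and Lcn2 -0.66, and without cells over 5 percent mitochondrial UMIs Lepr was -0.20. The causes were not tested. Leaving out the shared barcodes or the cells rich in S100a8 and S100a9, alternatives chosen after seeing the data, changed no count of 2-fold genes. No paired analysis was possible because each group is 1 library. Depth limits genes under 20 CPM, where a ratio within a small cluster rests on few UMIs.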
